A study of Mus musculus with 49 samples.

Results

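The p53 target genes of apoptosis described here are Bax, Bbc3 (Puma), Pmaip1 (Noxa), Bid, Apaf1, Fas, Tnfrsf10b, Pidd1, Perp and Aen. They were chosen by symbol, from a list of death genes known as p53 targets, and all 10 were found among the 20489 genes of each of the 4 deposited tables. Their RNA was measured by RNA-seq in 49 libraries of mouse embryonic stem (mES) cells in 16 groups. The cells were of the TC-1 line (129S6/SvEvTac) and were grown on gelatin without feeders. By their genotype labels, all groups but the wild-type ones carried degron-tagged Trim24, a cofactor of p53 with a RING domain. Per the study's methods the tag was FKBP12(F36V), on both copies of the endogenous gene, and each such line was a clone. The tag lets the small molecule dTAG13 (500 nM) trigger degradation of the Trim24 protein. Doxorubicin (1 µM), which damages DNA, was used to activate p53.

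In the time course, 3 untreated libraries (0 h) were compared with 3 libraries at each of 2, 4, 8 and 12 h of doxorubicin, with Trim24 present or degraded. Both compounds were given for the same hours, so that hours of activation and hours without Trim24 cannot be told apart. Another experiment held 3 uninduced libraries with Trim24 and 3 in which it was degraded. The RING-domain experiment, at 4 h of doxorubicin, held 4 libraries each of cells with Trim24, cells with Trim24 degraded, and a separate clone, called ligase-null, with mutations in the RING domain of endogenous Trim24 of a kind that removes ubiquitin ligase activity in related proteins. Its ligase activity was not measured in these data, and the study's methods do not say whether this clone was made from tagged cells. Last, 2 untreated and 2 treated libraries (4 h) came from wild-type cells. Nothing but their labels as biological replicates says how separate the cultures were. The p-values measure spread between libraries, pooled in part over all genes.

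When DNA is damaged, p53 is stabilized and switches on genes that can kill the cell by 2 routes. In the mitochondrial route the BH3-only proteins PUMA and NOXA disable survival proteins of the BCL2 family, BAX opens the outer mitochondrial membrane, and released cytochrome c assembles with APAF1 into the apoptosome that activates caspases. In the receptor route FAS and the TRAIL receptor encoded by Tnfrsf10b recruit caspases at the cell surface, and BID carries that signal to mitochondria. ES cells are known to respond to DNA damage both by apoptosis and by losing expression of pluripotency genes.

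RefSeq promoter windows of GRCm38.p6 (from 250 bases before to 50 bases after a gene's start) were at hand for 7 of the 10 genes, in 10 windows. Those of Bax, Aen, Fas, Apaf1 and Bid are printed because these genes span the responses described below, from a large rise to a fall. Capitals mark an exact match to the 10-base p53 half-site consensus, which is its own reverse complement, so that both strands were searched at once. Of the genes not printed, Bbc3 lies at chr7:16308393-16318205 (plus strand), Pidd1 at chr7:141438113-141444025 (minus), Tnfrsf10b at chr14:69767472-69784411 (plus) and Perp at chr10:18845020-18857073 (plus) in the GENCODE M21 annotation of GRCm38. The windows are Bax at chr7:45466849-45467148 (minus strand), Aen at chr7:78895677-78895976 (plus), Fas at chr19:34290409-34290708 (plus), Apaf1 at chr10:91082694-91082993 (minus) and Bid at chr6:120916775-120917074 (minus).
Bax: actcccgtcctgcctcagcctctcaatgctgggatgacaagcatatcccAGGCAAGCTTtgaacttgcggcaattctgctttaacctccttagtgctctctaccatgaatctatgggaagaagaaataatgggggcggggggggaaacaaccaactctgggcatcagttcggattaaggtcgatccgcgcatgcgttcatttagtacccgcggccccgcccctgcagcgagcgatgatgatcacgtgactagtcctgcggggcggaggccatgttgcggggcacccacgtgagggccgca
Aen: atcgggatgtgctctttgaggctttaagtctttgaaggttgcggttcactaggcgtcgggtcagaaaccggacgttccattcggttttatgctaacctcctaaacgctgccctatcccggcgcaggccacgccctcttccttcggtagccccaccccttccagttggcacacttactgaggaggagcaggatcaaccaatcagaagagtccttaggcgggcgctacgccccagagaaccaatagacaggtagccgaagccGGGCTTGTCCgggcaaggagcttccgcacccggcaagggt
Fas: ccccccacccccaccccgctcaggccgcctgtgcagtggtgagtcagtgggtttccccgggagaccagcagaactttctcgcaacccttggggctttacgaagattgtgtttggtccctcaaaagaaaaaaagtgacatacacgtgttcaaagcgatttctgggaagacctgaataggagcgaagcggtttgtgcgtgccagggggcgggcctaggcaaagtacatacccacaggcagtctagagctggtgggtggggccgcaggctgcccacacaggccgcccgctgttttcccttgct
Apaf1: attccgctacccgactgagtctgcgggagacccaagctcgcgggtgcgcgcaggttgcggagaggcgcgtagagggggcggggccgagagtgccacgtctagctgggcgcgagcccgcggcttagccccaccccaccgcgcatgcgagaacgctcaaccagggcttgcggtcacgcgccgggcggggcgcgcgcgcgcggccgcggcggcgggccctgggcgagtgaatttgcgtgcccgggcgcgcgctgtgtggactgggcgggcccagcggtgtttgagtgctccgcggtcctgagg
Bid: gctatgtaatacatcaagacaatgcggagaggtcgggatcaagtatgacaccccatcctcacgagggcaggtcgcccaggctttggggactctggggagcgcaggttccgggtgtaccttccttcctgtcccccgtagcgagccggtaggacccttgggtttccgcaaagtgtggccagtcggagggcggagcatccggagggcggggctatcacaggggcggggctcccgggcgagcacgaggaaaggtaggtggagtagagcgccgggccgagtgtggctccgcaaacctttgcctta

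The Bax window held AGGCAAGCTT, starting 201 bases before the gene's start, at position −201. The Aen window held GGGCTTGTCC, 10 bases after the start. A second start of Aen has a window that overlaps the first and holds the same match at −121. No exact match was in the windows of Fas, Apaf1, Bid and Pidd1 or in the 3 windows of Bbc3. Inexact matches and bases outside the windows were not searched, so p53 sites there would be missed. The consensus occurred in 2745 of all 32851 windows of this length (8.36%). The windows of these genes were richer in G and C than most. Their median was 63.3% (range 57.3 to 78.0%) against 52.7% over all windows, and they held a median of 21.5 CpG dinucleotides (14 to 46) against 7.

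Before the results, the state of the libraries was checked. Libraries held 14422098 to 35185256 reads over genes, with a median of 19520026. No replicates of a group agreed within sampling noise, so none was counted as a duplicate. Replicate 7 of the cells with Trim24 in the RING-domain experiment stood apart from the other 3 by the mean chi-square per gene. It was 26.7 to 27.6 for pairs with replicate 7 and 2.995 to 4.59 among the others. By the median chi-square over its expected value the pairs with replicate 7 were at 2.33 to 2.78, against 2.32 to 2.44. Values without this library are given beside the results of that experiment. Mdm2, whose product degrades p53 and which p53 itself induces, was at 181 ± 4.65 CPM at 0 h and 966 ± 32.0 CPM at 4 h (SD, n = 3 each), where CPM is the usual read count scaled for depth, here with TMM library sizes. Group means were 175 to 250 CPM without doxorubicin and 564 CPM or more with it. The Trim24 libraries of the uninduced experiment carry a treatment label of activated p53, while their titles call them untreated. They were grouped by title, and their Mdm2 level was 184 ± 5.54 CPM (SD, n = 3). Trim24 RNA does not measure the degradation, which acts on the protein. All 8 ES cell markers were detected in every group. Their summed level fell from 4913 to 4977 CPM at 0 h to 987 to 1091 CPM at 12 h, Nanog, a pluripotency factor, being at 628 ± 40.3 and 8.32 ± 1.02 CPM (SD, n = 3 each). The 7 fibroblast markers summed to 15.5 to 18.6 CPM at 0 h and 45.0 to 56.7 CPM at 12 h. Most of that rise was in the collagen gene Col1a1 (27.4 ± 5.54 CPM at 12 h), while the mean of Postn stayed at most 0.399 CPM in every group and Lum had no read at 0 h. The part of these shifts in the results below was not tested, and in bulk RNA fewer cells of a type and less RNA per cell cannot be told apart.

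Calls were made by limma on the deposited log2 values, at an adjusted p below 0.01 and a log2 fold change of 0.75 or more in either direction (the minimum fold change below). The prior count of 8 reads in those values pulls low levels together, so that the log2 fold changes of Fas are understated, and it was taken out of the CPM values. The 4 comparisons with 0 h share its 3 libraries. Limma takes the spread of a gene in part from all genes. In comparisons that hold libraries of 8 h, nearly all of it came from there for most of these genes.

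At 4 h of p53 activation with Trim24 present, 7 of the 10 genes had risen and 1 had fallen. Fas, Pmaip1, Apaf1, Bbc3, Pidd1, Perp and Tnfrsf10b rose, Bid fell, and Bax and Aen did not pass. Over all genes tested, 12.9% rose and 5.8% fell, and the median log2 fold change was 1.52 over the 10 genes and −0.01 over all genes. At 2 h 5 of the 10 had risen (Pmaip1, Bbc3, Fas, Apaf1 and Pidd1) and none had fallen, against 3.07% and 0.677% of all genes. At 8 h the counts were again 7 and 1, with all genes at 27% and 18.3%. At 12 h 6 were higher and 1 lower, since Bbc3 no longer passed, against 30.3% and 22.9%. All 10 genes passed the filter on low values in every comparison.

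The changes differed in their course, as the plot by library and the plot of log2 changes show. Fas, Pmaip1 and Perp had their highest mean at 12 h, and Apaf1 had nearly reached its own by 8 h. Bbc3 was highest at 4 h and lower after it. Pidd1 and Tnfrsf10b had made 76.0% and 72.3% of their rise by 4 h. Bid was lowest at 12 h, and the means of Bax and Aen stayed within 1.3 times their level at 0 h.

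**Figure D1:**
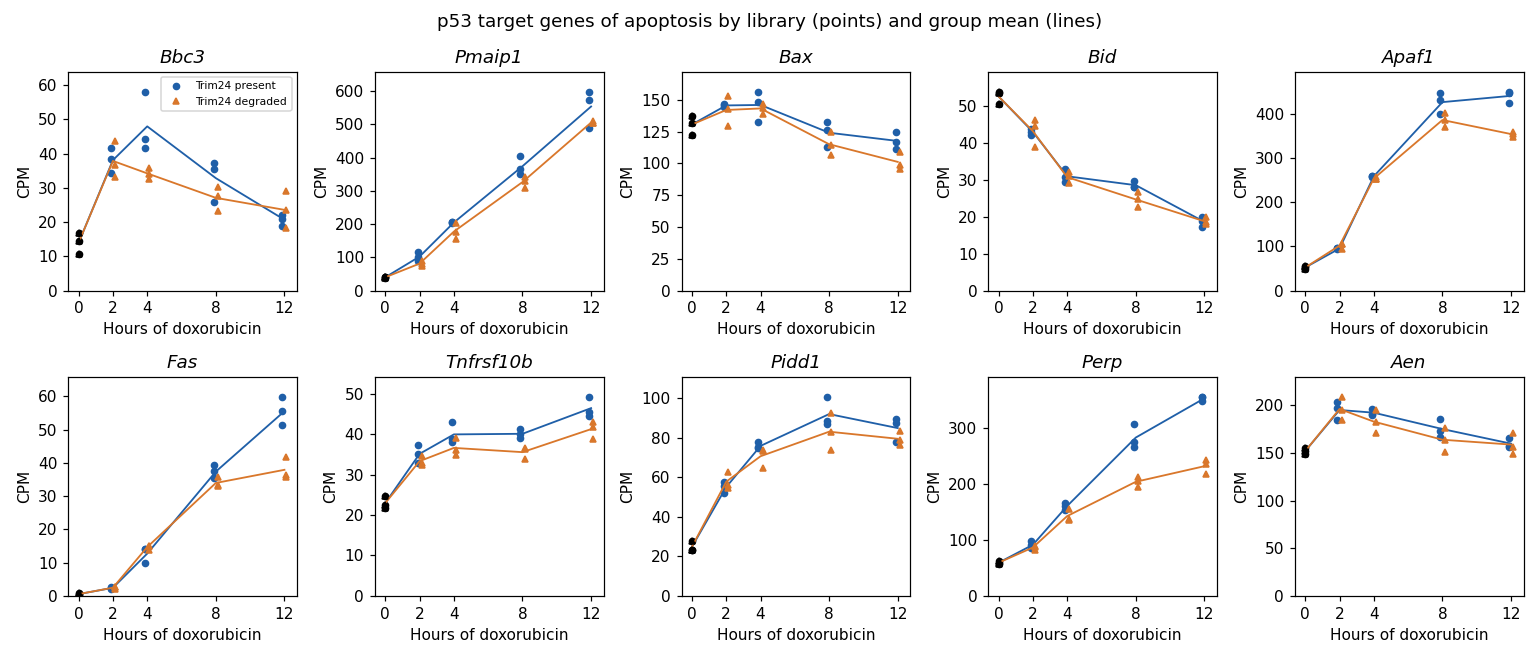
CPM of each gene (y axis) against hours of doxorubicin (x axis), with 1 point per library and lines through group means. Black points are the 3 untreated libraries, blue circles cells with Trim24 and orange triangles cells with Trim24 degraded, and the lines part most for Perp and Fas at 12 h.

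The BH3-only gene Bbc3 encodes PUMA, which binds all of the BCL2-type survival proteins. Its libraries held 14.5, 16.8 and 10.7 CPM at 0 h, 41.8, 38.4 and 34.2 CPM at 2 h and 58.1, 41.7 and 44.2 CPM at 4 h. They held 26.0, 35.4 and 37.2 CPM at 8 h and 21.0, 19.0 and 22.2 CPM at 12 h. Every treated library was thus above every untreated one, and those at 12 h were below all others under treatment. From 0 h the log2 fold change was 1.44 at 2 h (standard error 0.13, adjusted p = 7.6e-07, limma), 1.76 at 4 h and 0.57 at 12 h. The largest mean, at 4 h, was 3.43 times that at 0 h. By 2 h Bbc3 had gone 71.0% of the way to it, and at 12 h it stood at 19.8%. The drops from 4 to 8 h (−0.54) and from 8 to 12 h (−0.64) were each below the minimum fold change. Without replicate 1 at 8 h, the second reached −0.80 and passed.

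Pmaip1 encodes NOXA, the BH3-only antagonist of MCL1. Its level was 39.0, 40.9 and 40.8 CPM at 0 h, 102, 88.3 and 117 CPM at 2 h and 204, 206 and 206 CPM at 4 h. It went on to 404, 352 and 367 CPM at 8 h and 599, 490 and 574 CPM at 12 h. No time overlapped with the next, and the mean at 12 h was 13.8 times that at 0 h. Pmaip1 rose from 2 to 4 h by 1.01 and from 4 to 8 h by 0.86 on the log2 scale, and the last step of 0.56 was below the minimum fold change. After 2 h it had made 12.1% of its rise in CPM, against 71.0% for Bbc3, another BH3-only gene.

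Bax, on chromosome 7, encodes the pore-forming effector of the mitochondrial route. It was at 122, 138 and 132 CPM at 0 h, and at 156, 133 and 149 CPM at 4 h. These ranges overlapped. Its group means over the time course lay between 118 and 146 CPM with Trim24, and its log2 fold change was 0.16 at 2 h (95% interval 0.03 to 0.28), 0.16 at 4 h (0.04 to 0.28), −0.08 at 8 h (−0.21 to 0.06) and −0.15 at 12 h (−0.29 to −0.02; 0.15, with the opposite sign, under quantile normalization). The ranges of 0 h and 2 h did not overlap, and those of 8 and 12 h overlapped with 0 h. Bax had the highest level per exon length of the 10 genes in untreated cells.

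Bid, whose product is cut by caspase-8 and then acts on BAX and BAK, was the gene of the group that fell. It was at 50.5, 53.4 and 53.9 CPM at 0 h and at 43.0, 43.9 and 42.1 CPM at 2 h. Libraries at 4 h held 32.8, 30.7 and 29.4 CPM and those at 12 h 19.9, 17.2 and 18.8 CPM, so that the ranges at 0, 2, 4 and 12 h were apart. Its log2 fold change was −0.29 at 2 h, −0.76 at 4 h (standard error 0.06, adjusted p = 2.6e-09, limma), −0.87 at 8 h and −1.48 at 12 h. The call at 4 h rests on the threshold: it was lost under quantile normalization (−0.70), on the log2(CPM + 1) scale (−0.75) and without replicates 2 (−0.75) or 3 (−0.74) at 0 h or replicate 3 at 4 h (−0.72). The 3′ end of Bid overlaps the neighbouring gene Bcl2l13 on the other strand. The counting tool was run with default settings, which ignore strand, so reads there were not assigned to a gene by strand. What this did to the level of Bid was not tested.

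Apaf1, on chromosome 10, encodes the scaffold of the apoptosome. Its libraries held 55.5, 48.5 and 53.4 CPM at 0 h, 95.5, 95.7 and 95.3 CPM at 2 h and 256, 260 and 260 CPM at 4 h. They held 448, 400 and 432 CPM at 8 h and 450, 447 and 426 CPM at 12 h. Replicates were close at 2 and 4 h, and the last 2 times overlapped. It rose by 2.30 on the log2 scale at 4 h (standard error 0.05, adjusted p = 2.1e-17, limma) and by 3.07 at 12 h. Apaf1 had made 53.2% of its rise in CPM by 4 h and 96.3% by 8 h. From 8 to 12 h its log2 fold change was 0.05 (95% interval −0.0995 to 0.196). The step from 4 to 8 h, 0.72, lay just under the minimum fold change and passed under quantile normalization (1.099) and without replicate 2 at 8 h (0.76).

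Of the receptor route, Fas (chromosome 19) encodes the receptor of FAS ligand. At 0 h its libraries held 6, 16 and 9 reads, which are 0.299, 0.785 and 0.525 CPM. The level rose to 2.05, 2.45 and 2.81 CPM at 2 h, 9.95, 14.2 and 14.04 CPM at 4 h and 39.3, 37.4 and 35.4 CPM at 8 h. At 12 h it was 59.8, 55.6 and 51.3 CPM. Every library lay above all libraries of the time before, and the change was the largest of the 10 genes, with a ratio of mean CPM of 23.7 at 4 h and 104 at 12 h. The few reads at 0 h limit how well these ratios are known. Fas rose by 3.89 on the log2 scale at 4 h (standard error 0.19, adjusted p = 4.6e-12, limma). It also rose in the steps from 2 to 4 h (2.22) and from 4 to 8 h (1.55).

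Tnfrsf10b encodes the one TRAIL receptor of the mouse that can signal death. It was at 22.5, 24.7 and 21.8 CPM at 0 h, 37.4, 33.0 and 35.0 CPM at 2 h and 38.0, 43.0 and 38.8 CPM at 4 h. These groups were apart, and its mean at 12 h, 46.5 ± 2.43 CPM (SD, n = 3), was 2.02 times that at 0 h. Its log2 fold change was 0.61 at 2 h, which did not pass, 0.79 at 4 h and 1.00 at 12 h. The call at 4 h did not hold under median centring (0.74) or without replicate 2 at 4 h (0.73), nor that at 8 h under median centring (0.59 against 0.80). Pidd1, whose protein forms the PIDDosome that activates caspase-2, was at 23.4, 27.9 and 23.0 CPM at 0 h, 57.5, 55.3 and 52.2 CPM at 2 h and 77.6, 74.99 and 74.8 CPM at 4 h. Its log2 fold change was 1.14 at 2 h and 1.61 at 4 h (standard error 0.07, adjusted p = 2.2e-13, limma). It had made 45.1% of its rise at 2 h and reached its highest mean, 91.9 ± 7.51 CPM (SD, n = 3), at 8 h. The 3 early times were apart.

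Perp encodes a tetraspan membrane protein that p53 induces in dying cells. Its libraries held 61.5, 57.4 and 58.7 CPM at 0 h, 84.7, 91.7 and 97.3 CPM at 2 h and 161, 167 and 154 CPM at 4 h. They held 307, 265 and 275 CPM at 8 h and 355, 348 and 355 CPM at 12 h, with no overlap between times. Perp was higher by 0.62 on the log2 scale at 2 h, which did not pass, and rose by 1.43 at 4 h (standard error 0.05, adjusted p = 7.7e-15, limma). Aen encodes an exonuclease that p53 induces. It was at 152, 156 and 149 CPM at 0 h, 197, 204 and 184 CPM at 2 h and 196, 191 and 190 CPM at 4 h. Both treated groups were above the untreated one and overlapped with each other. The log2 fold change of 0.36 at 2 h (95% interval 0.24 to 0.48) and 0.34 at 4 h (0.25 to 0.43) was below the minimum, and at 12 h it was 0.07 (−0.05 to 0.19). At 8 h it was 0.20, and −0.01 under median centring.

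**Figure D2:**
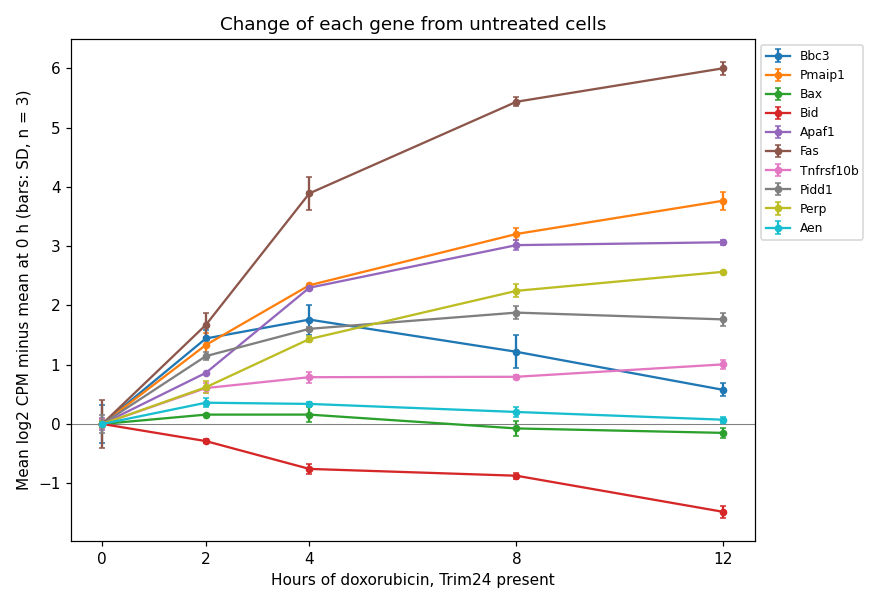
Mean log2 CPM of each gene minus its mean at 0 h (y axis, deposited scale) against hours of doxorubicin with Trim24 present (x axis), bars being the SD of 3 libraries. Fas reaches 6.00, Pmaip1 3.77 and Apaf1 3.07 at 12 h, Bbc3 is back at 0.57 and Bid is at −1.48.

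Counted by steps, 4 genes rose from 2 to 4 h (Fas, Apaf1, Pmaip1 and Perp; background 7.69%) and 3 from 4 to 8 h (Fas, Pmaip1 and Perp; 16.6%). From 8 to 12 h 0 passed in limma and in limma-voom, where 4.18% of all genes were called higher. Before adjustment, a p below 0.05 was reached by 4 on the higher and 2 on the lower side. The share of all genes at that p is not given here. The scaling matters for counts of calls. Median centring lowers all log2 fold changes by 0.21 at 8 h and 0.22 at 12 h and those of the step from 4 to 8 h by 0.13. In that step Pmaip1 (0.73) and Perp (0.68) then missed the minimum. Quantile normalization lowers the median by 0.12 at 8 h and 0.15 at 12 h. It also moves the split of all calls: of the genes called, 81.9% were higher at 2 h, 69.0% at 4 h, 59.6% at 8 h and 56.9% at 12 h, and under quantile normalization 71.2%, 54.4%, 47.6% and 46.9%. For the steps the share higher was 78.5% from 2 to 4 h and 68.3% from 4 to 8 h, and 64.9% and 53.7% under quantile normalization. Under median centring it was 45.9% at 8 h, 46.0% at 12 h and 51.8% for the step from 4 to 8 h.

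The order of the levels per exon length (CPM per kilobase, from the GENCODE M21 exons of GRCm38) changed with activation. In untreated cells Bax led with 82.8 ± 4.81, followed by Perp (30.3 ± 1.05) and Aen (26.2 ± 0.607), and then by Bid (14.8 ± 0.510) and Pmaip1 (14.7 ± 0.382), whose ranges overlapped (SD, n = 3 each). Bbc3, Apaf1 and Pidd1 lay between 5.47 and 6.59 with ranges that overlapped from each gene to the next, Tnfrsf10b was at 4.22 and Fas was lowest at 0.260. At 12 h Pmaip1 (203 ± 20.9) and Perp (181 ± 1.93) led with overlapping ranges and Bax followed with 74.6 ± 4.31. Fas, at 26.95 ± 2.07, overlapped with Aen (27.5 ± 0.932), and Bid was lowest with 5.25 ± 0.385.

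Over the 27 libraries of the time course the genes fell into patterns that the log2 levels describe. Fas, Pmaip1, Apaf1 and Perp were correlated with each other at Pearson's r of 0.964 to 0.989, and each of them with Bid at −0.954 to −0.902. Bbc3 was most like Aen (r = 0.874) and had an r of 0.0404 to 0.167 with those 4 genes. These are descriptions over libraries that share treatments, with no test. Outside the lists examined, the gene most like Fas was Heca (r = 0.994), and those most like Apaf1, Perp and Pmaip1 were Cnga3 (0.996), Igtp (0.995) and Sbsn (0.992). Between 637 and 794 genes had an r over 0.95 with each of these 4. The gene most like Pidd1 was Fam83h (0.986), for Bid Rinl (0.980) and for Tnfrsf10b Sowahb (0.961). Bax was most like Rps14 (0.939), Bbc3 like Nek8 (0.918) and Aen like Sesn2 (0.897), and no gene reached 0.95 with these 3.

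On loss of Trim24 none of the 10 genes passed both thresholds in limma at 2, 4, 8 or 12 h, in uninduced cells or in the RING-domain experiment. Limma-voom also called 0 in each. Of all genes tested, 0.338% were called at 2 h, 1.15% at 4 h, 1.58% at 8 h, 4.11% at 12 h, 0.0781% in uninduced cells and 1.15% in the RING-domain experiment. Before adjustment, a p below 0.05 was reached on the lower side by 1, 3, 4 and 5 genes at 2, 4, 8 and 12 h. On the higher side it was reached by 0. In uninduced cells 0 genes reached it, and in the RING-domain experiment 2 on each side. The shares above are for both thresholds, and those of all genes at this p are not given here. These counts thus do not show whether the 10 genes differ from other genes. The 95% intervals of all 60 log2 fold changes lay within ±0.75, between −0.74 and 0.48, so a change as large as the minimum was outside each of them.

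**Figure D3:**
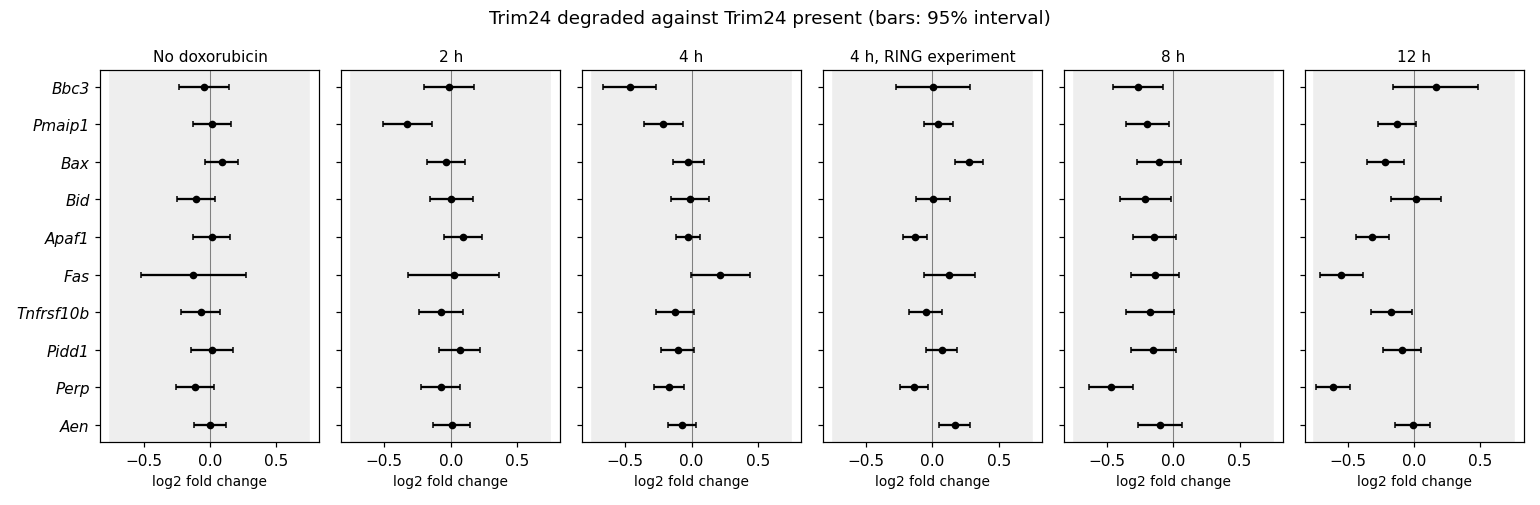
Log2 fold change on Trim24 degradation (x axis) of each gene (y axis) without doxorubicin, at 4 times of treatment and in the RING-domain experiment, with 95% intervals as bars and the range below the minimum fold change of 0.75 in grey. All intervals lie in the grey range, and those of Perp at 8 and 12 h and of Fas and Apaf1 at 12 h are the ones farthest below 0 at these times.

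Smaller shifts had an adjusted p under 0.01. The share of all genes at that p alone is not given here, and whether such shifts are particular to these genes was not tested. At 12 h Perp was at 355, 348 and 355 CPM with Trim24 and 217, 235 and 242 CPM without. Fas was at 59.8, 55.6 and 51.3 CPM against 36.3, 35.7 and 41.8 CPM, and Apaf1 at 450, 447 and 426 CPM against 360, 355 and 348 CPM. In all 3 genes the groups were apart. Perp had a log2 fold change of −0.61 (95% interval −0.74 to −0.48, adjusted p = 6.5e-08, limma), Fas of −0.55 (−0.71 to −0.38, adjusted p = 1.2e-05, limma) and Apaf1 of −0.31 (−0.44 to −0.19, adjusted p = 2.7e-04, limma). At 8 h Perp was at 307, 265 and 275 CPM with Trim24 and 194, 205 and 212 CPM without, again apart, with a log2 fold change of −0.47 (−0.63 to −0.31). Mdm2 showed the same kind of shift at 12 h, from 1167 ± 42.8 CPM with Trim24 to 730 ± 11.1 CPM on its loss (SD, n = 3 for both), a log2 fold change of −0.68 (adjusted p = 8e-09, limma). Trp53 RNA was at 90.8 ± 14.6 and 74.5 ± 2.26 CPM (SD, n = 3 each) in these groups, and summed ES cell markers at 987 to 1091 and 1003 to 1106 CPM. The part of these in the shifts was not tested.

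For each gene the log2 fold change on Trim24 loss at 12 h was tested against that at 4 h. Fas passed with −0.77 (95% interval −1.07 to −0.46, adjusted p = 7.3e-04, limma), against 3.51% of all genes called. It went from 12.7 ± 2.41 to 14.7 ± 0.716 CPM on Trim24 loss at 4 h and from 55.6 ± 4.27 to 37.9 ± 3.39 CPM at 12 h (SD, n = 3 each). The call was lost without any of 6 single libraries: replicate 1 at 4 h (−0.60) or at 12 h (−0.71) with Trim24, and replicates 2 (−0.74) or 3 (−0.75) at 4 h and 1 (−0.73) or 2 (−0.72) at 12 h without it. It was also lost under quantile normalization (−0.74), on the log2(CPM + 1) scale (−0.75) and in limma without its trend and robust options (adjusted p = 0.0187). The difference was −0.43 for Perp and −0.29 for Apaf1, with adjusted p = 4.0e-04 and 0.0031 (limma) but below the minimum fold change. Bbc3 had the opposite sign, 0.63 (0.14 to 1.12, adjusted p = 0.064, limma). It passed with 0.80 without replicate 3 of the degraded cells at 12 h.

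At 4 h itself Bbc3 was at 58.1, 41.7 and 44.2 CPM with Trim24 and 34.2, 32.7 and 35.9 CPM without, which do not overlap. Its log2 fold change was −0.47 (95% interval −0.67 to −0.27, adjusted p = 0.0037, limma). In the RING-domain experiment, the same contrast at the same time gave 40.7, 39.0, 51.2 and 33.9 CPM against 38.4, 41.0, 47.7 and 37.3 CPM, which overlap, and a log2 fold change of 0.01 (−0.27 to 0.29). Bax had a log2 fold change of −0.02 in the time course (95% interval −0.14 to 0.09) and of 0.27 in the RING-domain experiment (0.17 to 0.38, adjusted p = 1.4e-04, limma). There its libraries held 164, 141, 150 and 137 CPM with Trim24 and 187, 177, 181 and 170 CPM without. Without replicate 7 of the cells with Trim24 the values in the RING-domain experiment were 0.24 for Bax (adjusted p = 4.3e-04, limma) and −0.08 for Bbc3, and 0 of the 10 genes were called. The difference between the experiments was not tested.

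In uninduced cells the 95% intervals of all 10 log2 fold changes on Trim24 loss included 0. Apaf1 was at 80.1, 87.1 and 92.1 CPM with Trim24 and 96.1, 85.3 and 80.5 CPM without. Pmaip1 was at 45.0, 52.7 and 52.6 CPM against 49.7, 50.03 and 52.1 CPM, and Fas at 1.63, 1.006 and 0.961 CPM against 1.01, 0.839 and 1.32 CPM. These ranges overlapped, and the log2 fold changes of the 10 genes lay between −0.13 for Fas and 0.09 for Bax. These untreated cells and the 0 h cells of the time course, of like genotype, were not at the same levels. The mean of Apaf1 was 86.4 ± 6.02 CPM here and 52.5 ± 3.62 CPM at 0 h, that of Bid 38.7 ± 1.18 and 52.6 ± 1.81 CPM, and that of Perp 46.5 ± 1.39 and 59.2 ± 2.05 CPM (SD, n = 3 each). The tables were normalized separately and no test was made across them.

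In wild-type cells 5 of the 10 genes rose on activation and none fell, against 7.99% and 2.27% of all genes. They were Fas, Pmaip1, Apaf1, Pidd1 and Bbc3. Fas was at 1.15 and 0.869 CPM untreated and 5.65 and 5.24 CPM treated. Pmaip1 went from 45.1 and 39.4 to 143 and 129 CPM, and Apaf1 from 71.1 and 72.2 to 186 and 187 CPM. The groups were apart for each. On the log2 scale the change was 2.09 for Fas, 1.68 for Pmaip1, 1.38 for Apaf1, 1.36 for Pidd1 and 1.19 for Bbc3. Perp was at 57.5 and 57.0 CPM and at 91.8 and 93.3 CPM, apart but below the minimum with 0.69, and passed under quantile normalization (0.79). Bid (−0.55), Tnfrsf10b (0.49), Aen (0.24) and Bax (−0.01) did not pass. With 2 libraries a group, limma took the spread in good part from all genes. In the degron line at 4 h the log2 fold change was 3.89 for Fas, 2.34 for Pmaip1 and 2.30 for Apaf1, from libraries of another experiment. Of all calls in wild-type cells 77.9% were higher, and 61.3% under quantile normalization.

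The ligase-null clone addresses the part of the RING domain and was compared at 4 h of doxorubicin with both other groups of its experiment. Pmaip1 was its lowest gene relative to them: it was at 115, 116, 101 and 106 CPM, against 171, 187, 197 and 173 CPM in cells with Trim24 and 183, 171, 200 and 197 CPM in cells with Trim24 degraded. The ligase-null libraries were apart from both. Against degraded cells Pmaip1 was lower by the test, with −0.78 (95% interval −0.89 to −0.66, adjusted p = 1.6e-12, limma), the 1 call among the 10 genes, where 6.68% of all genes were called. Against cells with Trim24 the log2 fold change of −0.73 (−0.85 to −0.61, adjusted p = 4.3e-12, limma) lay just under the minimum, so that 0 of 10 were called by limma or limma-voom, against 6.95% of all genes. Before adjustment, 2 of the 10 had a p below 0.05 on the higher side and 4 on the lower. The share of all genes at that p is not given here. The −0.78 and −0.73 of Pmaip1 lie near the minimum fold change. The call against degraded cells was lost under quantile normalization (−0.66) and without replicate 6 of the degraded (−0.74) or replicate 3 of the ligase-null cells (−0.74). Against cells with Trim24 a call was gained under median centring (−0.76) and without either of 2 single libraries with Trim24 (replicates 4 and 7) or 2 ligase-null ones (replicates 1 and 2), at −0.75 to −0.76. The 2 comparisons share the ligase-null libraries. Of all calls against degraded cells 72.4% were higher, and 60.4% under quantile normalization.

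The other genes differed by less. Apaf1 was at 207, 209, 200 and 190 CPM in ligase-null cells, at 262, 258, 251 and 247 CPM with Trim24 and at 232, 236, 232 and 229 CPM without, and the 3 groups did not overlap. Its log2 fold change was −0.34 against Trim24 and −0.21 against degraded cells. Perp went the other way, with 126, 122, 122 and 121 CPM in ligase-null cells, 108, 108, 111 and 97.6 CPM with Trim24 and 94.0, 96.3, 99.6 and 95.5 CPM without. Its log2 fold change was 0.21 and 0.35, and that of Tnfrsf10b 0.24 and 0.29. Fas (−0.33 and −0.46) was lower in ligase-null cells, its libraries being apart from both groups. Of these, adjusted p was under 0.01 by limma for all but Fas against Trim24 (0.011), and each was below the minimum fold change. Bax (−0.28, adjusted p = 6.6e-04, limma) and Pidd1 (−0.20, adjusted p = 0.0091, limma) were also lower against degraded cells, with overlapping ranges and below the minimum. Against Trim24 Bax had −0.01 and Pidd1 −0.13. Without replicate 7 of the cells with Trim24, the log2 fold change against Trim24 was −0.35 for Apaf1, −0.33 for Fas, 0.23 for Tnfrsf10b (adjusted p = 0.0096, limma) and 0.17 for Perp, whose adjusted p went from 0.0033 to 0.017. Bid (0.02 and 0.02) and Bbc3 (−0.02 and −0.03) had nearly the same means in all groups. In ligase-null cells Trp53 RNA was at 147 ± 8.98 CPM against 212 ± 10.2 with Trim24 and 190 ± 26.0 without, and Trim24 RNA at 97.9 ± 1.89 CPM against 123 ± 3.48 and 131 ± 4.52 (SD, n = 4 each). Fibroblast markers summed to 8.50 to 10.7 CPM in them and 20.2 to 23.8 CPM in the other groups, a gap made mostly by Thy1. The clone and the mutation cannot be told apart.

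**Figure D4:**
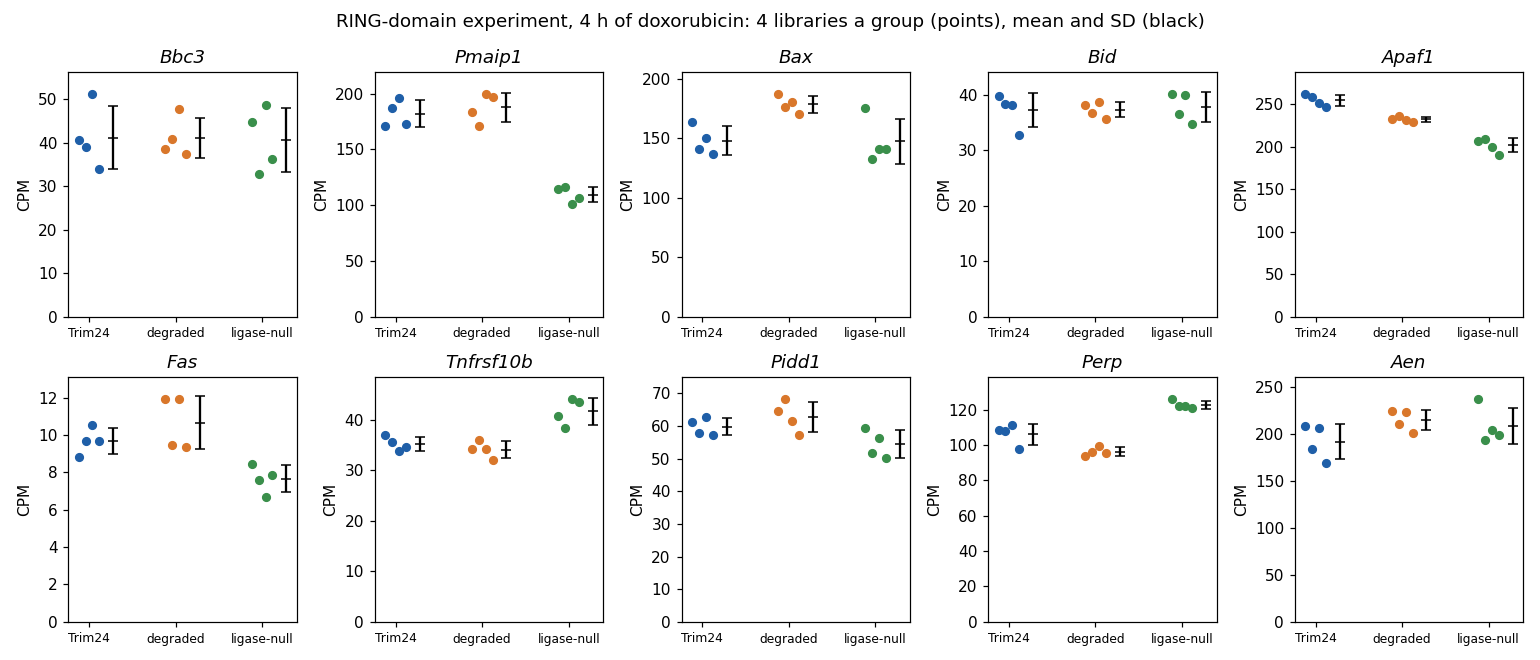
CPM of each gene (y axis, from 0) in the 3 groups of the RING-domain experiment at 4 h of doxorubicin, with 1 point for each of 4 libraries and the mean and SD in black. Pmaip1, Apaf1 and Fas of the ligase-null libraries lie below both other groups, and Perp and Tnfrsf10b above them.

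The partners of these proteins were followed in 4 further lists, whose genes called at 12 h or in ligase-null cells alone are named after their values were seen. Of 10 other p53 targets linked to cell death, 5 rose and 0 fell at 4 h, with a median log2 fold change of 0.72, where 12.9% of all genes rose and 5.8% fell. At 12 h 8 rose and 0 fell (median 1.14), where 30.3% and 22.9% of all genes did. Ikbip went from 16.2 ± 1.08 to 80.5 ± 3.24 CPM at 4 h (SD, n = 3 each; log2 fold change 2.29). Trp53inp1 rose by 2.06, Phlda3, an inhibitor of AKT, by 1.55, Dram1, a lysosomal regulator of autophagy, by 0.94 and Zmat3 by 0.85. In 16 genes of the mitochondrial pathway and the caspases, 1 rose and 1 fell at 4 h and the median was −0.04, beside the same 12.9% and 5.8% of all genes. Dffb, the nuclease that cuts DNA in dying cells, rose by 2.06, from 14.3 ± 1.06 to 60.6 ± 4.27 CPM (SD, n = 3 each), and Birc3, an inhibitor of apoptosis, fell by 1.25. At 12 h 3 rose, among them Diablo (0.81), which encodes an antagonist of such inhibitors, and 2 fell, among them Aifm1 (−1.09), against the 30.3% and 22.9% of all genes.

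Of the 11 tested genes of the BCL2 family outside the 10, Bik rose by 0.91 at 4 h and Bcl2l1 and Hrk fell, against 12.9% and 5.8% of all genes. At 12 h 2 of the family rose and 3 fell, against 30.3% and 22.9% of all genes. Bcl2l1, the gene of the survival protein BCL-XL, went from 60.1 to 33.2 CPM at 4 h and to 20.6 CPM at 12 h, with log2 fold changes of −0.85 and −1.53. The pro-death BH3-only gene Hrk fell by 1.03 at 4 h from 1.98 CPM. At 12 h Bak1, which like Bax encodes a pore-forming effector, had fallen by 1.36. Among the 9 tested genes of 12 in the death receptor pathway (ligands, adaptors and initiator caspases) none rose at 4 h and Tnfrsf21, another death receptor, fell by 0.90. The median of that list was −0.31, and −0.01 over all genes. At 12 h 0 of 11 tested rose and 3 fell, beside the same 30.3% and 22.9% of all genes.

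On Trim24 loss 1 of the 48 tested genes of the 4 lists was called at 8 h and 1 at 12 h, against 1.58% and 4.11% of all genes. Both times it was Birc3, with 1.30 at 8 h and 1.32 at 12 h, where it was at 1.74 ± 0.193 CPM in the presence of Trim24 and 4.89 ± 0.306 CPM in its absence (SD, n = 3 for both), and none was called at 2 or 4 h, in uninduced cells or in the RING-domain experiment. In ligase-null cells 2 of the 48 were called against Trim24 and 3 against degraded cells, shares of 4.17% and 6.25% beside 6.95% and 6.68% of all genes. Cflar, an inhibitor of caspase-8, was higher against both groups (1.26 and 0.85), the p53 target Steap3 was lower (−1.34 and −1.20) and Hrk was higher against degraded cells (0.98).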

How the data were processed

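Per the labels and the study's methods, the authors aligned stranded total RNA reads to mm10 with STAR, used featureCounts over the protein-coding genes of GENCODE M25, and deposited log2 CPM values after TMM scaling in edgeR with a prior count of 8, in 4 tables normalized separately. A read matching several places was kept at 1 of them at random. The prior was removed here: 100% of values came out as whole reads within 0.01, which gave CPM and depths. Groups came from the labels. Each comparison was fitted over all genes at least 0.5 above the table's lowest log2 value in at least the number of libraries of the smaller group, with limma 3.58.1 (trend and robust; R 4.3.3), and p-values were adjusted by Benjamini-Hochberg. The scripts were tested on simulated data. Levels per length used GENCODE M21 exons (GRCm38). All 10 genes were named; of other lists, up to 5 genes called at 4 h or on Trim24 loss, and for each gene the closest in Pearson's r. The genes, lists and tests were chosen with earlier results of these data known. Alternatives were limma-voom, quantile or median scaling, other filters and thresholds, log2(CPM + 1), a replicate block and leaving out each library. Not every gene of the other lists is reported here.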

Additional observations from a re-analysis of the deposited data

Results flagged for a closer look

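In 3 of the 10 genes the log2 fold change on Trim24 loss differed between 12 h and 4 h of p53 activation at an adjusted p below 0.01 in the limma interaction fit. Of these only Fas also passed the minimum fold change, where 3.51% of all genes were called. The share of all genes at the adjusted p alone is not given here. The difference between the times was −0.77 for Fas, −0.43 for Perp and −0.29 for Apaf1, each being lower on loss at 12 h. At 4 h the log2 fold change on loss was 0.22 for Fas, −0.17 for Perp and −0.03 for Apaf1, and at 12 h it was −0.55, −0.61 and −0.31. Mdm2 had a difference of −0.66 by the same fit. In the groups of 4 libraries, 30 pairs of a gene and a group were examined for a single library far from the others, and 0 passed Dixon's 95% limit.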

How the results depend on the processing

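Of 278 alternative counts of called genes over 17 comparisons, 246 stayed within 1.5 times the value given, and of 2780 alternative log2 fold changes of single genes 2693 kept both direction and call. A looser rule, an adjusted p below 0.05 at any fold change, gave more calls. They were 9 at 2 h, and 7, 8 and 6 in the steps to 4, 8 and 12 h. On Trim24 loss they were 2, 1 and 4 at 4, 8 and 12 h, and 3 for the difference between 12 and 4 h. They were 9 in wild-type cells, 4 on degradation in the RING-domain experiment, and 5 and 7 for ligase-null against Trim24 and against degraded cells. Of all genes the looser rule called 2555 of 15515 at 2 h. In the steps it called 6730 of 15816, 11391 of 16522 and 6967 of 16876. On Trim24 loss it called 1848 of 16138, 1893 of 17424 and 5265 of 16774, and 4018 of 17217 for the difference. Totals for wild-type cells and the RING-domain experiment are not given here. The counts were not tested against those of all genes. Median centring gave 1 in the step from 4 to 8 h and 1 for ligase-null cells against Trim24. Quantile normalization gave 0 for the difference between 12 and 4 h and 0 for ligase-null against degraded cells. The difference also gave 0 in limma without trend and robust options and 0 on the log2(CPM + 1) scale. By that rule the sign turned for Aen at 8 h (−0.0069 under median centring). Under quantile normalization it turned for Bax at 12 h (0.15) and for Bax (0.0084) and Aen (0.17) in the step from 4 to 8 h. The cause was not tested. Leaving out single libraries gave 0 to 1 calls in the step from 8 to 12 h, 0 to 2 for the difference between 12 and 4 h, and 0 to 1 in each ligase-null comparison. With the replicate number as a replicate block, 15 of 15 counts were the same, such as 8 at 4 h. In no comparison was the correlation of same-numbered libraries over 0.1 in every pair (the lowest pair of a comparison was at most 0.0123), so the numbers were not taken as pairs. No paired analysis was possible for ligase-null cells because they share only 1 number with the other groups. At 0 h Fas rests on 6 to 16 reads a library, which limits its ratios.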
